A study of Mus musculus with 8 samples.

Results

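The 10 genes followed here belong to the urea cycle and glutamine metabolism and were measured in regenerating mouse liver. They were chosen by name from the pathway, with earlier results of these data known. They are Cps1, Otc, Ass1, Asl, Arg1, Nags, Slc25a15, Slc25a13, Gls2 and Glul, out of 55401 genes in the deposited tables, and all 10 were among the 13908 genes with enough counts to be tested. Both groups were C57BL/6J mice that received a short hairpin RNA from an adeno-associated virus aimed at hepatocytes, 4 weeks before partial hepatectomy (surgery that takes out most of the liver), and both gave liver on day 2 after surgery. The control group carried the hairpin shNC and the other group the hairpin shTbl1xr1, directed at Tbl1xr1, which encodes a member of the NCoR corepressor complex. Each group had 4 libraries of total liver RNA. All samples thus come from operated mice that carried a virus, and no unoperated group was analysed here. Whether the 4 libraries of a group come from 4 animals is not stated in the labels, and a p-value here therefore reflects no more than library-to-library spread, some of which may be technical. The labels state neither age nor sex.

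The urea cycle turns ammonium, which is toxic to the brain, into urea that the kidney excretes, and the full cycle runs in hepatocytes. Its first steps lie in the mitochondrion and the later ones in the cytosol, so ornithine, citrulline and aspartate have to cross the inner mitochondrial membrane on carriers. In the liver lobule the cycle and the glutaminase Gls2 are most active near the portal vein, whereas the glutamine synthetase Glul is held to a thin rim of hepatocytes around the central vein, where it takes up ammonium that the cycle has left. A regenerating liver needs nitrogen for nucleotides and polyamines while it must still clear ammonium with less tissue.

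The libraries shTbl1xr1 1 and 2 stood apart from the other 6, and this bears on every result below. shTbl1xr1 1 and 2 held 10895508 and 10728583 counts, against 25811763 to 36720879 in the others, and 11.3% and 14.8% of their counts came from mitochondrially encoded genes, against 4.52% to 7.34%. Tbl1xr1 itself was at 27.2, 35.9, 33.7 and 34.6 CPM (counts scaled to the library's normalised size) in shNC 1 to 4 and at 2.38, 2.07, 9.24 and 15.9 CPM in shTbl1xr1 1 to 4, so its level was lowest in that same pair. Its deposited length was 6242 bases, and genes over 5000 bases had a median log2 difference from shNC of -0.68 in that pair. In shTbl1xr1 3 and 4 that median was 0.14, and the part of length in the Tbl1xr1 levels was not tested. Of 8 hepatocyte markers 7 were found by symbol, and their summed level was 56143 to 76558 CPM in shNC, 82128 and 94178 CPM in shTbl1xr1 1 and 2, and 51936 and 76830 CPM in shTbl1xr1 3 and 4. Of these 7 markers, 5 lay above the shNC range in both shTbl1xr1 1 and 2. Alb lay inside it, and 1, Apob, lay below it in both, at 1525 and 2024 CPM against 2619 to 3747 CPM. The 5 markers above it had deposited lengths of 1033 to 1583 bases, Alb 2034 bases and Apob 6199 bases. Markers of kidney and skeletal muscle were at most 0.0341 CPM, and 2 of those 5 had no count in any library.

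None of the 10 genes passed the test for a difference between shTbl1xr1 and shNC. By edgeR's quasi-likelihood test with Benjamini-Hochberg adjustment over all 13908 genes, 0 of the 10 were higher and 0 lower at an adjusted p under 0.05, where 0.0431% of all genes tested were called higher and 0.00719% lower. With p under 0.05 before adjustment the same test had 1 of the 10 higher (Ass1) and 0 lower, against 7.9% and 3.71% of all genes. DESeq2 called 1 of the 10 higher (Ass1) and 0 lower, against 1.55% and 0.259% of genes. Tbl1xr1 itself missed the threshold by edgeR, with a log2 fold change of -2.07 (SE 0.54, edgeR adjusted p = 0.29). It passed by DESeq2 (adjusted p = 0.00863). limma-voom called 0 of the 10, against 0.036% of all genes higher and 0% lower, and with sample weights also 0, against 0.223% and 0.0144%. edgeR with 1 surrogate variable called 0, where 0.273% of all genes were called higher and 0.0288% lower. The groups did not overlap for 1 of the 10, again Ass1, where 3.88% of all genes tested were separated upwards and 3.37% downwards. The log2 fold changes of the 10 genes had a median of 0.20, against 0.01 over all genes tested. With libraries scaled by their size alone, the median was -0.12 for the 10 genes and -0.27 for all genes. The sign of the median thus depended on the scaling, while the 10 genes stayed above all genes on both.

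Ass1, argininosuccinate synthase, joins citrulline to aspartate and so brings the second nitrogen into the cycle. It was at 2306, 2599, 2317 and 2868 CPM in shNC 1 to 4 and at 4339, 3235, 3552 and 3602 CPM in shTbl1xr1 1 to 4. Every shTbl1xr1 library lay above every shNC library. The group means were 2522 ± 267 and 3682 ± 467 CPM (SD, n = 4 each). The log2 fold change was 0.55 (SE 0.22, edgeR adjusted p = 0.412). The two-sided exact permutation p over the 70 arrangements of the 8 libraries was 0.0286, and no smaller p is possible with 4 against 4. Without shTbl1xr1 1 and 2 the log2 fold change was 0.50 (SE 0.18, edgeR adjusted p = 0.368). DESeq2 gave 0.55 with an adjusted p of 0.0331. With libraries scaled by size alone the groups did overlap, with shTbl1xr1 2 at 2185 CPM below all 4 shNC libraries (2491 to 3263 CPM), and 0 of the 10 genes were separated in either direction, against 1.01% of all genes upwards and 6.99% downwards. On that scaling 0 of the 10 were called by edgeR, against 0.0216% of genes higher and 0.00719% lower, and the Ass1 log2 fold change was 0.24. On the deposited TPM, as log2 of TPM plus 1, limma gave a difference of 0.02 (adjusted p = 0.972).

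**Figure D1:**
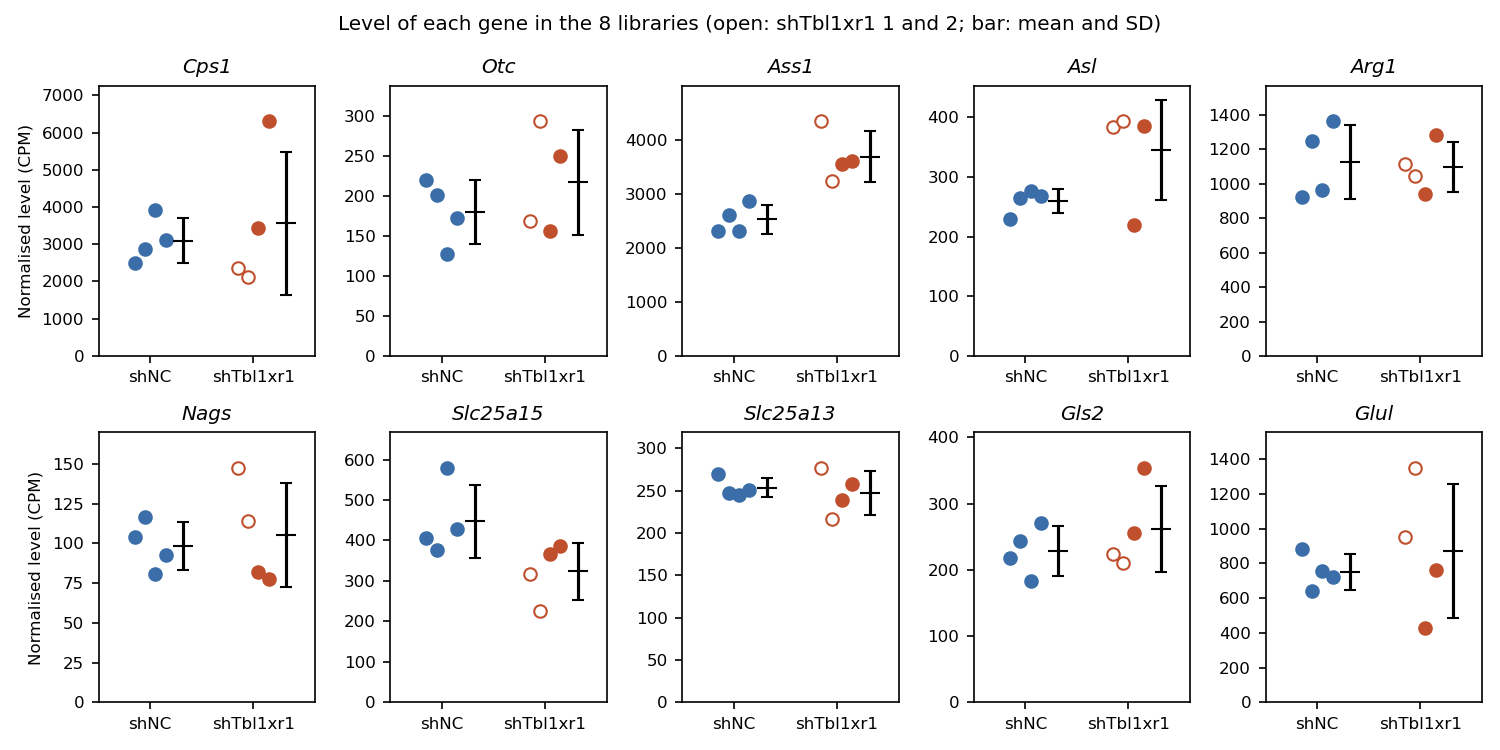
Normalised level in CPM (vertical axis, from 0, a separate scale for each gene) of the 10 genes in the 4 shNC libraries (blue) and the 4 shTbl1xr1 libraries (red); open circles are shTbl1xr1 1 and 2, and the black bars are group means with SD. Ass1 is the 1 gene whose groups do not overlap, and Cps1 and Glul spread most widely within shTbl1xr1.

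Asl, argininosuccinate lyase, which splits the product of Ass1 into arginine and fumarate, was at 229, 264, 276 and 268 CPM in shNC 1 to 4. In shTbl1xr1 1 to 4 it was at 384, 393, 220 and 386 CPM. The libraries shTbl1xr1 1, 2 and 4 thus lay above the shNC range and shTbl1xr1 3 lay below it. The log2 fold change was 0.41 (SE 0.22, edgeR adjusted p = 0.458). It was 0.22 (SE 0.22) without shTbl1xr1 1 and 2 and 0.58 without shTbl1xr1 3.

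Cps1, carbamoyl phosphate synthetase of the mitochondrial matrix, fixes free ammonium in the first and rate-controlling step. It was at 2499, 2871, 3914 and 3117 CPM in shNC 1 to 4 and at 2374, 2109, 3444 and 6306 CPM in shTbl1xr1 1 to 4. The shTbl1xr1 libraries lay on both sides of shNC: 1 and 2 were below its range, 3 was inside it, and 4 was 1.04 above the shNC mean on the log2 scale. The fold change of the group therefore averaged opposite values, with a log2 fold change of 0.20 (SE 0.37, edgeR adjusted p = 0.826), of 0.65 without shTbl1xr1 1 and 2, and of -0.23 without shTbl1xr1 4.

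Otc, ornithine transcarbamylase, which makes citrulline from ornithine and carbamoyl phosphate, was at 220, 202, 127 and 172 CPM in shNC 1 to 4. It was at 169, 293, 156 and 251 CPM in shTbl1xr1 1 to 4. shTbl1xr1 2 and 4 lay above the shNC range and 1 and 3 inside it, with a log2 fold change of 0.27 (SE 0.26, edgeR adjusted p = 0.652). Arg1, arginase, which releases urea and returns ornithine, was at 927, 1247, 965 and 1364 CPM in shNC 1 to 4 and at 1118, 1049, 943 and 1283 CPM in shTbl1xr1 1 to 4. All 4 shTbl1xr1 libraries lay within the shNC range. Its log2 fold change was -0.04 (SE 0.22, edgeR adjusted p = 0.952), and a p that misses the threshold does not show that the groups were alike.

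Nags makes N-acetylglutamate, the obligate activator of Cps1. It was at 104, 116, 80.5 and 92.6 CPM in shNC 1 to 4 and at 148, 114, 81.8 and 77.9 CPM in shTbl1xr1 1 to 4. shTbl1xr1 1 was the highest of all 8 libraries and shTbl1xr1 4 the lowest. For Nags the log2 fold change was 0.10 (SE 0.23, edgeR adjusted p = 0.867) and turned to -0.30 (SE 0.17) without shTbl1xr1 1 and 2.

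Slc25a15, the mitochondrial carrier that exchanges ornithine for citrulline, had the lowest log2 fold change of the 10 genes. It was at 406, 377, 580 and 428 CPM in shNC 1 to 4 and at 316, 227, 366 and 386 CPM in shTbl1xr1 1 to 4. The libraries shTbl1xr1 1 to 3 lay below the shNC range and shTbl1xr1 4 lay just inside its lower end. Means were 448 ± 90.6 and 324 ± 70.9 CPM (SD, n = 4 each). The log2 fold change was -0.47 (SE 0.23, edgeR adjusted p = 0.436), and -0.25 (SE 0.20) without shTbl1xr1 1 and 2. Slc25a13, known as citrin, carries aspartate out of the mitochondrion for the step of Ass1. It was the steadiest of the 10, at 245 to 270 CPM in shNC and 216 to 277 CPM in shTbl1xr1, with a log2 fold change of -0.03 (SE 0.16, edgeR adjusted p = 0.94).

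For the glutamine genes, Gls2, the liver glutaminase that frees ammonium from glutamine for Cps1, was at 218, 244, 183 and 271 CPM in shNC 1 to 4. It was at 225, 211, 256 and 354 CPM in shTbl1xr1 1 to 4. The first 3 shTbl1xr1 libraries lay inside the shNC range and shTbl1xr1 4 above it, with a log2 fold change of 0.19 (SE 0.22, edgeR adjusted p = 0.709). Glul, glutamine synthetase, was at 884, 640, 757 and 722 CPM in shNC 1 to 4 and at 953, 1350, 428 and 761 CPM in shTbl1xr1 1 to 4. shTbl1xr1 1 and 2 were above every shNC library, shTbl1xr1 3 was below every one, and shTbl1xr1 4 was inside the range. For Glul the log2 fold change was 0.22 (SE 0.32, edgeR adjusted p = 0.78), and -0.34 (SE 0.25, edgeR adjusted p = 0.66) without shTbl1xr1 1 and 2.

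**Figure D2:**
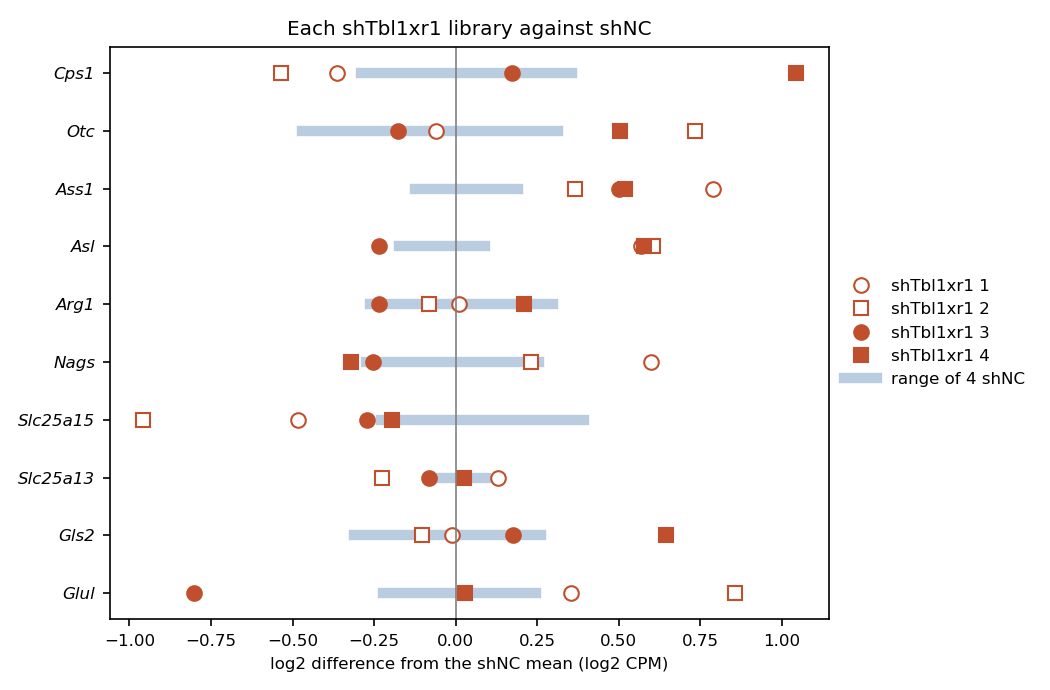
Difference of each shTbl1xr1 library from the shNC mean on the log2 CPM scale (horizontal axis) for the 10 genes; open symbols are shTbl1xr1 1 and 2, filled symbols 3 and 4, and the blue bands are the ranges of the 4 shNC libraries. All 4 symbols lie right of the band for Ass1 only, and for Cps1, Asl, Nags, Slc25a13 and Glul symbols lie on both sides of it.

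The genes outside the shNC range were in part shared between the shTbl1xr1 libraries. Ass1 lay above it in all 4, and shTbl1xr1 1 and 2 shared Ass1, Asl and Glul above it and Cps1 and Slc25a15 below it. Of the 10 genes, 5 lay above and 2 below the shNC range in shTbl1xr1 1, 4 above and 3 below in shTbl1xr1 2, 1 above and 4 below in shTbl1xr1 3, and 5 above and 1 below in shTbl1xr1 4. The share of all genes outside that range in each library was not counted. These counts and the shared genes are therefore a description and not a trait of the 10 genes. The 5 cycle enzymes together summed to 6180, 7182, 7598 and 7791 CPM in shNC 1 to 4 and to 8384, 7080, 8316 and 11827 CPM in shTbl1xr1 1 to 4. shTbl1xr1 4, which had the highest Tbl1xr1 level of the shTbl1xr1 libraries, had the highest sum, and Cps1 alone supplied 6306 CPM of it.

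Fits with either pair of shTbl1xr1 libraries left out gave the following values side by side; both use the same 4 shNC libraries. Without shTbl1xr1 1 and 2, 0 of the 10 genes were called in either direction, where 0.0478% of all genes were called higher and 0% lower. Without shTbl1xr1 3 and 4, edgeR called 3 of the 10 higher (Ass1, Asl and Glul) and 1 lower (Slc25a15), where 21.5% of all genes were called higher and 21.1% lower. The share of the 10 that was called is thus near that of all genes in this pair. There the log2 fold changes were 0.58 for Ass1 (edgeR adjusted p = 0.0258), 0.58 for Asl (0.00553), 0.61 for Glul (0.0243) and -0.72 for Slc25a15 (0.0219). Cps1 had 0.65 without shTbl1xr1 1 and 2 and -0.47 without 3 and 4, Gls2 had 0.41 and -0.08, and Nags had -0.30 and 0.41.

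**Figure D3:**
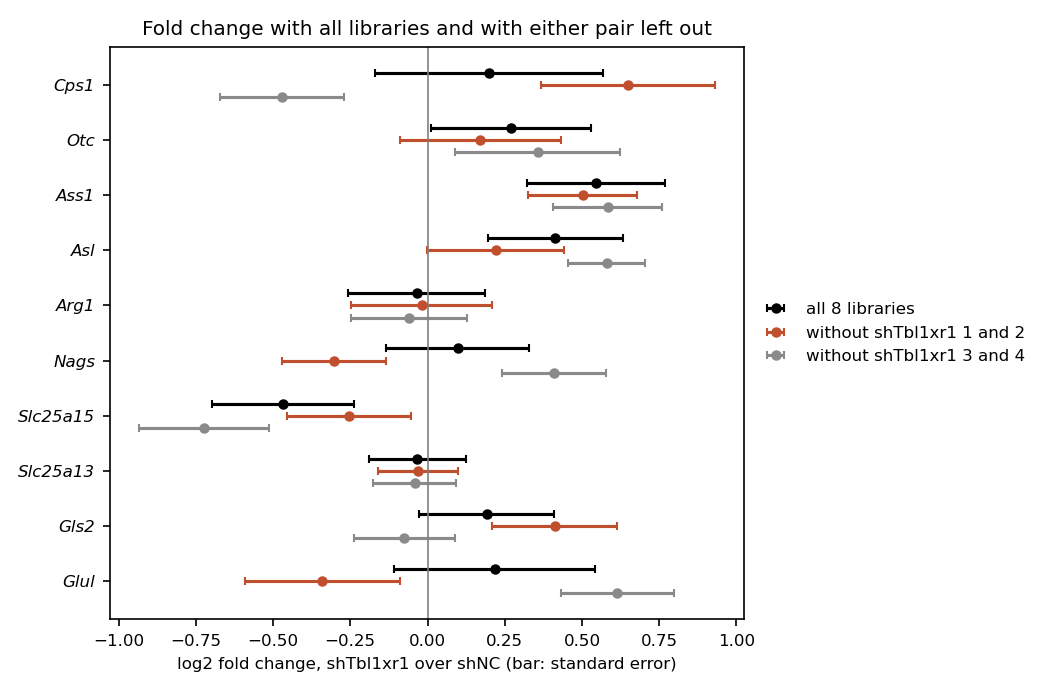
Log2 fold change of shTbl1xr1 over shNC with its standard error for the 10 genes, from all 8 libraries (black), without shTbl1xr1 1 and 2 (red) and without shTbl1xr1 3 and 4 (grey). The 3 estimates stay near each other for Ass1, Arg1 and Slc25a13, and lie on both sides of 0 for Cps1, Nags, Gls2 and Glul.

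Transcript length moved with the difference between the library pairs. In shTbl1xr1 1 and 2, the median log2 difference from shNC was 0.92 over the 1490 tested genes with a deposited length under 1000 bases, 0.34 for 1000 to 2000 bases, -0.11 for 2000 to 3000, -0.40 for 3000 to 5000 and -0.68 for the 1503 genes over 5000 bases. In shTbl1xr1 3 and 4 the medians ran from -0.14 for the shortest class to 0.14 for the longest. Cps1, at 5555 bases the longest of the 10, was -0.45 in shTbl1xr1 1 and 2, less far below shNC than the median of its length class. Slc25a15 (3443 bases) was at -0.72, which is -0.32 relative to its class, and in shTbl1xr1 3 and 4 it was -0.30 relative to its class. Glul (2784 bases) stood 0.72 above its class in shTbl1xr1 1 and 2 and -0.38 from it in 3 and 4. Ass1 (1692 bases) stood 0.24 and 0.58 above its class in the same pairs. The part of transcript length in these differences was not tested.

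**Figure D4:**
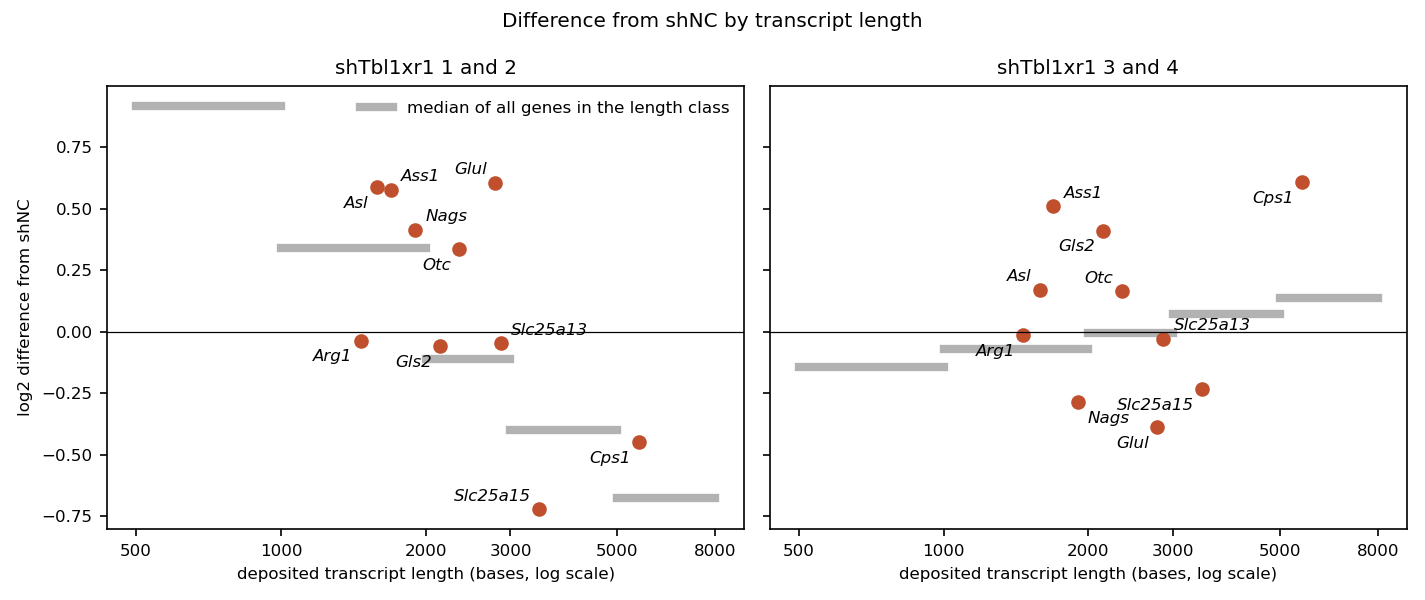
Log2 difference from shNC (vertical axis) against deposited transcript length in bases (horizontal log axis) in shTbl1xr1 1 and 2 (left) and in shTbl1xr1 3 and 4 (right); red points are the 10 genes and grey bars the medians of all tested genes in 5 length classes. On the left the bars run from 0.92 down to -0.68, and Glul stands 0.72 above its bar.

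Markers of other liver cells also moved with that pair. The summed level of 9 macrophage markers was 588 to 948 CPM in shNC, 290 and 311 CPM in shTbl1xr1 1 and 2 and 786 and 732 CPM in shTbl1xr1 3 and 4, and 8 of the 9 lay below the shNC range in both shTbl1xr1 1 and 2. All 9 stellate cell markers and all 9 endothelial markers did the same, with stellate sums of 293 to 508 CPM in shNC and 133 and 129 CPM in that pair. In shTbl1xr1 3 the stellate sum was 604 CPM, above the shNC range, and in shTbl1xr1 4 it was 325 CPM. Without shTbl1xr1 3 and 4, edgeR called 21.1% of all genes lower, and the share of all genes below the shNC range in both libraries was not counted. The stellate and endothelial markers ran from 1238 bases (Clec4g) to 10895 bases (Ptprb), over length classes with medians from 0.34 to -0.68 in that pair. Bile duct markers summed to 26.6 to 109 CPM in shNC and were highest in shTbl1xr1 3, at 228 CPM, the library in which Asl and Glul were lowest. In bulk tissue, fewer cells of a type and less RNA per cell cannot be told apart. Neither the part of transcript length in these markers nor the part of the markers in the values of the 10 genes was tested.

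Promoter sequences are shown for 3 genes on which the comparison turns: Ass1, the 1 gene with separated groups, Slc25a15, the gene with the lowest fold change, and Glul, the gene of the opposite lobular zone. They are the 250 bases before the RefSeq start on GRCm38.p6, the assembly that mm10 denotes, given 5′ to 3′ on the gene's strand. The table held 6 of the 10 genes (Otc, Ass1, Nags, Slc25a15, Slc25a13 and Glul), and for Slc25a15, which had 2 starts, the one nearer the GENCODE start was used. Capitals mark matches on either strand to 5 motifs, none of which contains another: TATAAA as bound by the basal machinery, CCAAT as bound by NF-Y, GGGCGG known as the GC box, AGGTCA as bound by nuclear receptors, and TTNCNNAA as a loose form of the C/EBP site.
Ass1, chr2:31470020-31470269, plus strand: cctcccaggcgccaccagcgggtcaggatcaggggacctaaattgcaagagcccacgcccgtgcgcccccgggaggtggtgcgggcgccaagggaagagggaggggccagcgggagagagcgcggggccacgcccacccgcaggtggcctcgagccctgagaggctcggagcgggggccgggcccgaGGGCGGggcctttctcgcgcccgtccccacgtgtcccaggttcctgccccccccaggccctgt
Slc25a15, chr8:22398622-22398871, minus strand: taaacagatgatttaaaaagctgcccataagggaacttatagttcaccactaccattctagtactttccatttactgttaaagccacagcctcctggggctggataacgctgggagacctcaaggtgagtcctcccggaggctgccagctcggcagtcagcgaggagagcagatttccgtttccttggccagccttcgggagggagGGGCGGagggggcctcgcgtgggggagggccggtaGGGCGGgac
Glul, chr1:153899679-153899928, plus strand: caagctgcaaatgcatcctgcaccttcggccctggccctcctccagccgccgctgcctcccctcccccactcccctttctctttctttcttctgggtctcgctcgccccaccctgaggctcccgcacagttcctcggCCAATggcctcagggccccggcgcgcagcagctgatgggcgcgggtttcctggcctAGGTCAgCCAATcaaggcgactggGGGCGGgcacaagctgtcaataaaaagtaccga

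The Ass1 window reaches past the GENCODE start of the gene, since the RefSeq start lies 63 bases downstream of it, and its 1 marked GC box begins at that GENCODE start (31470207), inside the annotated gene. No other motif of the 5 was found in that window. There were 2 GC boxes in the Slc25a15 window, and 2 CCAAT boxes, 1 GC box and 1 AGGTCA in the Glul window. Over all 32851 windows of this length the shares with a match were 32.7% for GGGCGG, 33.8% for CCAAT, 14% for AGGTCA, 12.4% for TATAAA and 36.8% for TTNCNNAA. Of the 6 genes, AGGTCA was found for Glul and Nags and TTNCNNAA for Otc and Nags. The bases G and C made up 75.6% of the Ass1 window, 57.6% of that of Slc25a15 and 64.8% of that of Glul, against a median of 52.4%. A match is a run of letters and not a shown binding site.

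In mm10 the 10 genes lie on 8 chromosomes, as whole annotated genes. Ass1 spans chromosome 2 from 31470207 to 31520672, Cps1 chromosome 1 from 67123026 to 67231259, Otc chromosome X from 10252305 to 10321024, Nags chromosome 11 from 102145513 to 102149477, Gls2 chromosome 10 from 128194457 to 128210004 and Glul chromosome 1 from 153899944 to 153909723, all on the plus strand. Asl spans chromosome 5 from 130011258 to 130029247, Arg1 chromosome 10 from 24915221 to 24927484, Slc25a15 chromosome 8 from 22375551 to 22398597 and Slc25a13 chromosome 6 from 6041218 to 6217173, on the minus strand.

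Levels of different genes can be compared only per length, for which the deposited TPM (transcript abundance scaled by effective length and library total) was used. In shNC the order by TPM was Ass1 at 2234 ± 308, Arg1 at 1182 ± 255, Cps1 at 757 ± 193, Glul at 378 ± 38.4, Asl at 230 ± 25.3, Slc25a15 at 181 ± 46.8, Gls2 at 143 ± 21.0, Slc25a13 at 122 ± 2.53, Otc at 109 ± 18.6 and Nags at 74.2 ± 10.2 (SD, n = 4). Ass1 stood above Arg1, Cps1 above Glul and Glul above Asl with no overlap of their ranges. The other neighbours in that order had overlapping ranges. The mitochondrial enzymes Cps1 and Otc, which act in sequence, differed widely, and Otc was next to last. In shTbl1xr1 the first 5 kept this order by mean, with Ass1 at 2426 ± 1028 TPM, and every pair of neighbours overlapped. The 10 genes made up 0.448% to 0.608% of all TPM in shNC, 0.356% and 0.276% in shTbl1xr1 1 and 2, and 0.62% and 0.776% in shTbl1xr1 3 and 4. Cps1 was at 286 and 223 TPM in shTbl1xr1 1 and 2, against 548 to 1010 TPM in shNC.

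Ratios of one gene to another within a library need no scaling between libraries, but a trend with transcript length does not cancel in them. Of the 45 pairs among the 10 genes, 4 had ratios that did not overlap between the groups, or 8.89%, against 7.84% of all pairs of genes with a mean of at least 5 CPM. Of these, 3 had Ass1 as the numerator, over Arg1, Slc25a15 and Slc25a13, and the other was Gls2 over Slc25a15. The ratio of Ass1 to Arg1 counts was 2.49, 2.08, 2.40 and 2.10 in shNC 1 to 4 and 3.88, 3.08, 3.77 and 2.81 in shTbl1xr1 1 to 4. Of all genes tested, 1.54% had a ratio to Arg1 that was separated upwards and 1.37% downwards. Ass1 to Slc25a13, which supplies the aspartate that Ass1 uses, had a ratio of 8.53 to 11.4 in shNC and of 14.0 to 15.7 in shTbl1xr1. Ass1 to Slc25a15 ran from 3.997 to 6.90 in shNC and from 9.34 to 14.3 in shTbl1xr1. In shTbl1xr1 1 and 2 the median log2 difference from shNC was 0.34 for the length class of Ass1 and -0.40 for that of Slc25a15. The part of length in these ratios was not tested. The ratio of Glul to Gls2, the synthetase to the glutaminase, overlapped, at 4.06, 2.62, 4.14 and 2.66 in shNC 1 to 4 and 4.24, 6.41, 1.67 and 2.15 in shTbl1xr1 1 to 4. It was lower in shTbl1xr1 3 and 4 than in any shNC library and higher in shTbl1xr1 1 and 2. These pairs were picked out after their values were seen.

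The genes most like these in pattern over the 8 libraries were sought among 9254 genes with a mean of at least 5 CPM, by Pearson's r of log2 CPM, as a description, since the libraries share depth and group. For Cps1 they included Myo6 (r = 0.97) and the arginine and lysine transporter Slc7a2 (0.96). For Glul they were Nmi (0.99), Ces3a (0.97) and Nadk2 (0.96), and for Gls2 Itprid2 (0.98), Zfp704 (0.96) and Cyp39a1 (0.95). Arg1 reached 0.87 with Rab10os, an antisense gene whose reads may be shared with its partner, 0.87 with Zfand4 and 0.84 with Prps2. Among the 10 genes themselves, Cps1 had r of 0.64 with Gls2 and -0.78 with Nags, and Asl had 0.69 with Glul and 0.58 with Ass1.

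Other genes of nitrogen metabolism were taken from 4 lists. Among 12 tested genes of nitrogen entry (15 listed), 17 of glutamine, ammonium and amino acid transport (20 listed), 14 of ornithine, proline and polyamines and 16 that use glutamine for synthesis, 0 were higher and 0 lower by edgeR at an adjusted p under 0.05. At an unadjusted p under 0.05 these lists had 2, 3, 2 and 0 genes higher and 1, 0, 0 and 0 lower, where the shares over all genes were 7.9% and 3.71%. The groups did not overlap for 1, 1, 0 and 1 genes upwards and 1, 0, 0 and 0 downwards, against 3.88% and 3.37% of all genes. DESeq2 called Rhbg and Gpt higher, where it called 1.55% of all genes higher and 0.259% lower. The list medians of the log2 fold change were -0.05, 0.28, 0.34 and 0.05, against 0.01 for all genes. They were 0.07, 0.39, 0.05 and 0.05 without shTbl1xr1 1 and 2, against 0.00, and with library size alone -0.37, 0.01, 0.02 and -0.27, against -0.27.

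In nitrogen entry, Gpt, the cytosolic alanine aminotransferase that passes nitrogen from alanine to glutamate, averaged 216 ± 21.9 CPM in the shNC group and 335 ± 55.0 CPM in the shTbl1xr1 group (SD, n = 4 each), with groups that did not overlap. Its log2 fold change was 0.63 (SE 0.18), with an adjusted p of 0.327 by edgeR and 0.0349 by DESeq2, and it was 0.54 without shTbl1xr1 1 and 2. Slc25a22, a mitochondrial glutamate carrier, was separated downwards, at 395 ± 122 and 234 ± 47.5 CPM, with a log2 fold change of -0.76 (SE 0.26, edgeR adjusted p = 0.37) and of -0.57 without that pair. Slc25a10, the dicarboxylate carrier, had 0.46 (0.23 without that pair), Car5a, the mitochondrial carbonic anhydrase that supplies bicarbonate to Cps1, 0.47, and Sirt5, a deacylase that acts on Cps1, 0.60, where 0.07 remained without shTbl1xr1 1 and 2. Glud1, glutamate dehydrogenase, had -0.26, and Gpt2, the mitochondrial partner of Gpt, -0.19.

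Among transporters, Rhbg, an ammonium transporter of the same pericentral hepatocytes as Glul, had the largest log2 fold change. It was at 11.3, 9.54, 5.54 and 6.95 CPM in shNC 1 to 4 and at 31.4, 30.2, 9.40 and 16.5 CPM in shTbl1xr1 1 to 4. Of the shTbl1xr1 libraries only shTbl1xr1 3 lay within the shNC range. The log2 fold change was 1.38 (SE 0.39), with an adjusted p of 0.32 by edgeR and 0.0368 by DESeq2, and it was 0.64 without shTbl1xr1 1 and 2. Slc38a3, the main hepatic carrier of glutamine, had 0.78 (SE 0.28) and Slc1a2, a glutamate transporter of pericentral hepatocytes, 0.62 (SE 0.28), with edgeR adjusted p of 0.393 and 0.426. Slc38a7, a lysosomal glutamine carrier, was separated upwards, at 13.4 ± 1.16 and 18.5 ± 1.73 CPM with a log2 fold change of 0.47 (SE 0.14). Slc38a2 and Slc38a1, carriers of small neutral amino acids, had -0.31 and -0.34, which turned to 0.21 and 0.21 without shTbl1xr1 1 and 2.

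In the ornithine list, Prodh, which oxidises proline, had 0.67 and Sat1, which acetylates polyamines, 0.49. Oat, ornithine aminotransferase, had 0.27 (SE 0.30), and Odc1, the first enzyme of polyamine synthesis, 0.18 (SE 0.19). Amd1, of polyamine synthesis, had -0.06. Among genes that use glutamine or its products, Gclm, the modifier subunit of glutathione's first enzyme, was separated upwards (0.46), but narrowly. Its lowest shTbl1xr1 library was at 163.9 CPM and its highest shNC library at 163.2 CPM. Umps of pyrimidine synthesis had 0.36. Cad, which starts pyrimidine synthesis in the cytosol with glutamine as nitrogen donor, had -0.47 (SE 0.26), Pfas of purine synthesis -0.35 and Asns, asparagine synthetase, 0.32 (SE 0.49). In the fit without shTbl1xr1 1 and 2, Gclm had 0.13, Umps 0.23, Cad -0.13, Pfas -0.16 and Asns 0.14, and in the ornithine list Prodh had 0.41, Oat -0.21, Odc1 0.05 and Amd1 -0.15.

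**Figure D5:**
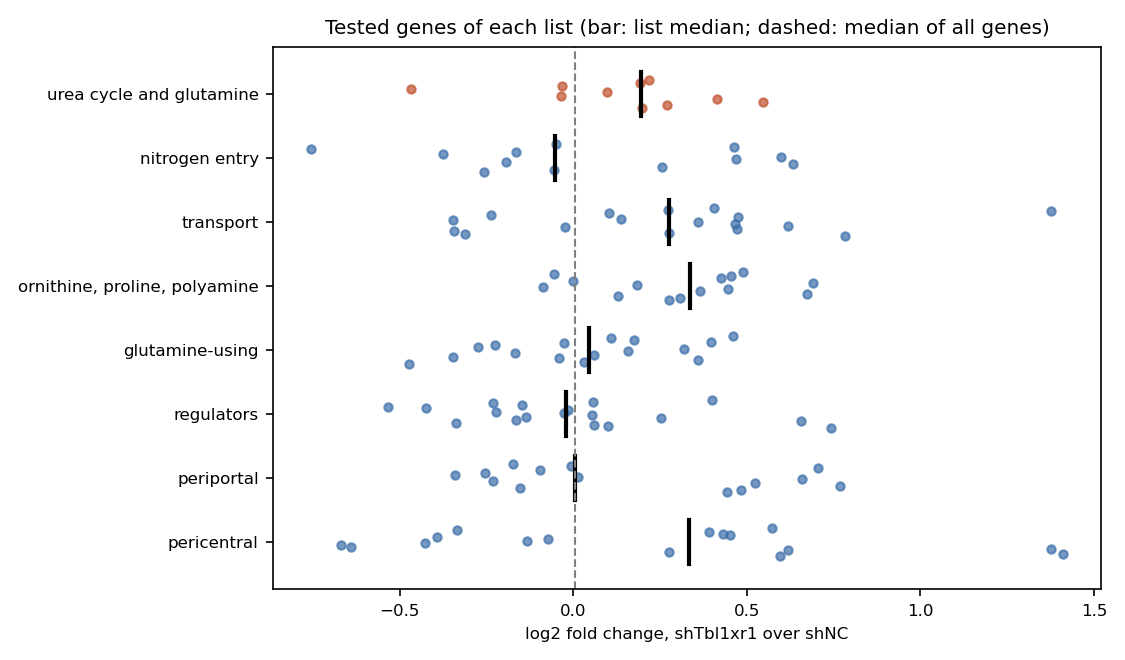
Log2 fold change of shTbl1xr1 over shNC (horizontal axis) for each tested gene of 8 lists, with the 10 urea cycle and glutamine genes in red; black bars are list medians and the dashed line is the median of all genes tested. The medians lie between -0.05 and 0.34, and the genes of every list lie on both sides of 0.

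Genes of both lobular zones were listed because the cycle and Glul occupy opposite ones. Of 14 periportal and 16 pericentral genes, all tested, 0 were called by edgeR in either direction, against 0.0431% of all genes higher and 0.00719% lower. With p under 0.05 before adjustment, 1 periportal gene was higher and 0 lower. At that cutoff 2 pericentral genes were higher and 2 lower, where the shares of all genes were 7.9% and 3.71%. The groups did not overlap for 1 periportal gene upwards and 1 pericentral gene downwards, against 3.88% and 3.37% of all genes. The median log2 fold change was 0.00 for the periportal list and 0.33 for the pericentral list. Without shTbl1xr1 1 and 2 the order was the reverse, with 0.26 for the periportal and -0.17 for the pericentral list. Among periportal genes, Hal (histidine breakdown) had 0.44, Sds (serine breakdown) 0.48, Cyp2f2 0.77 and Pck1 of gluconeogenesis -0.15, and Uox, urate oxidase, was separated upwards with 0.71. Cdh1 had 0.52, Gldc -0.34 and Ctsc -0.25. With that pair left out, Cdh1 had 0.77, Gldc -0.07, Ctsc 0.11, Cyp2f2 0.40 and Pck1 0.32. Among pericentral genes, Cyp2e1 had 0.60 and Cyp27a1 0.45, while the Wnt targets Axin2 and Lgr5 had -0.64 (SE 0.21) and -0.67 (SE 0.25). Axin2 was separated downwards, at 6.47 to 8.24 CPM in shNC and 3.69 to 6.18 CPM in shTbl1xr1. Glul and Rhbg, which are also Wnt targets in the liver, had the values above, 0.22 and 1.38, so genes of this class lay on both sides of 0. Without shTbl1xr1 1 and 2, Axin2 had -0.56, Lgr5 -0.80, Cyp2e1 -0.33 and Glul -0.34. In that fit Rhbg had 0.64, Slc1a2 0.47 and Cyp27a1 0.32, so named pericentral genes again lay on both sides of 0.

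Of 18 tested regulators of hepatic nitrogen genes, 0 passed by edgeR in either direction, where 0.0431% of all genes were called higher and 0.00719% lower. Before adjustment, 0 of the 18 had p under 0.05, against 7.9% of all genes higher and 3.71% lower. Cebpa, a factor known to drive urea cycle genes, was at 178, 103, 108 and 131 CPM in shNC 1 to 4 and at 266, 268, 85.6 and 250 CPM in shTbl1xr1 1 to 4. Its low library, shTbl1xr1 3, is also the low library for Asl and Glul. The log2 fold change was 0.74 (SE 0.35, edgeR adjusted p = 0.428) and 0.37 without shTbl1xr1 1 and 2. Foxa2 had 0.66 and Klf15, a factor of amino acid breakdown, -0.42, against 0.15 and -0.02 without that pair. Cebpb, Hnf4a and the glucagon receptor Gcgr had 0.10, 0.06 and 0.05. With libraries scaled by size alone these 3 turned to -0.26, -0.23 and -0.27, where the median of all genes was -0.27.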

How the data were processed

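For each library the authors deposited 1 table, which per the file headers gives an expected count per gene (an estimate of fragments that need not be whole), a gene length and TPM. Tools named in the submitters' processing notes are STAR, RSEM and DESeq2 1.30.1, with the build mm10. Options, strand and annotation were not stated in the sources used here. Symbols and positions came from GENCODE release M21, which matched 55141 of the 55401 identifiers.

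Expected counts were rounded, filtered by filterByExpr (13908 genes kept), scaled by TMM and tested with edgeR 4.0.16 under R 4.3.3 (quasi-likelihood F test, robust, no covariate, Benjamini-Hochberg over all genes, threshold 0.05). The SE is the log2 fold change over the square root of F. CPM are TMM-scaled; log2 levels used a prior count of 2; permutation tests used log2 of CPM plus 1. The deposited TPM were used for levels between genes and, with limma 3.58.1, for 1 alternative. The test was also run on simulated data, the outcome of which is not reported here. Totals were 10728583 to 36720879 counts, and the 10 genes had 827 to 254357 counts each per library, so counting error is small beside the spread between libraries.

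The 10 genes and all lists were chosen with earlier results of these data known. The text names the 10 genes, Tbl1xr1, a fixed set of 23 others, per list up to 2 genes in each direction with the smallest p, and the 3 genes most like Cps1, Arg1, Gls2 and Glul, predicted genes left out; 4 of these are not reported here. Ratios were added after the data were seen. The alternatives were 3 other scalings, no filter, DESeq2 1.42.0, limma-voom with and without sample weights, the replicate number as a block, 1 surrogate variable (sva 3.50.0), TPM, each library left out, and each shTbl1xr1 pair left out.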

Additional observations from a re-analysis of the deposited data

Results flagged for a closer look

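Each result below is a library that lay far from the other 3 of its group by Dixon's ratio; 102 groups of 4 were examined and 5 stood out, where chance gives about 1 in 20. Asl was lowest in shTbl1xr1 3, at 219.8 CPM, against 384 to 393 CPM in the other shTbl1xr1 libraries. Cebpa was lowest in the same library, at 85.6 CPM, against 250 to 268 CPM. Hal was lowest in shNC 3, at 125.1 CPM, and Gldc was highest in shNC 3, at 186.3 CPM. Umps was highest in shNC 1, at 36.1 CPM.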

How the results depend on the processing

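The groups differ in few genes at this spread, and 2 of the 4 shTbl1xr1 libraries have less depth, more mitochondrial counts and a trend with length, so the values of the 10 genes depend on which libraries enter. Over 20 alternatives, the 10 genes kept their direction and their side of the threshold in 169 of 200 values, turned direction in 26 and passed the threshold in 5. The other named genes did so in 753, 52 and 35 of 840. Ass1, Asl and Slc25a15 kept their direction in all 20. Library size alone moved the median of all genes by -0.28 and limma on TPM by -0.34, so directions there are relative to that shift. The cause of the turns below was not tested.

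The 6 genes called higher and 1 called lower over all genes became 12 higher without a filter, 234 and 39 with DESeq2, 31 and 2 with voom sample weights, 38 and 4 with 1 surrogate variable, 3 higher with library size alone, 1 and 0 with limma on TPM, 0 lower with limma-voom and 0 lower without shTbl1xr1 1 and 2. They became 3073 and 3021 without shTbl1xr1 3 and 4. With 1 library left out they ranged from 0 to 28 and from 0 to 6, with most without shTbl1xr1 4. DESeq2 called 1 of the 10 genes (Ass1, 0.55) and 2 of the other listed genes higher. Without shTbl1xr1 3 and 4, edgeR called 3 of the 10 higher (Ass1 0.58, Asl 0.58, Glul 0.61) and 1 lower (Slc25a15 -0.72). It called 29 higher and 26 lower of the 110 other listed genes, not all of which were tested. Of all genes, 21.5% were called higher and 21.1% lower in that fit.

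Log2 fold changes of the 10 genes turned as follows. With library size alone, Otc had -0.051, Nags -0.27, Gls2 -0.052 and Glul -0.20. Cps1 had -0.018 with limma-voom, and Cps1 -0.20 and Gls2 -0.026 with its sample weights. With 1 surrogate variable, Nags had -0.23 and Glul -0.21. Without shTbl1xr1 1 and 2, Nags had -0.30 and Glul -0.34, and without 3 and 4, Cps1 had -0.47 and Gls2 -0.076. On TPM, Cps1 had -0.44, Otc -0.28, Nags -0.39, Gls2 -0.10 and Glul -0.41. With 1 library left out, ranges were -0.23 to 0.38 for Cps1, -0.12 to 0.069 for Arg1, -0.11 to 0.22 for Nags, -0.092 to 0.025 for Slc25a13 and -0.074 to 0.44 for Glul.

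Among other named genes, library size alone turned Oat (-0.13), Asns (-0.0012), Odc1 (-0.13), Cebpb (-0.26), Hnf4a (-0.23) and Gcgr (-0.27), and upper quartile scaling Hnf4a (-0.017) and Gcgr (-0.027). The surrogate variable turned Oat (-0.089), Gpt2 (0.030), Pck1 (0.23), Cyp2e1 (-0.14), Cebpb (-0.049), Gcgr (-0.020), Slc38a2 (0.13) and Slc38a1 (0.010). Leaving out shTbl1xr1 1 and 2 turned Oat (-0.21), Gpt2 (0.064), Pck1 (0.32), Cyp2e1 (-0.33), Cebpb (-0.15), Gcgr (-0.056), Slc38a2 (0.21), Slc38a1 (0.21) and Ctsc (0.11), and leaving out 3 and 4 turned Amd1 (0.028). TPM turned Oat (-0.28), Slc1a2 (-0.13), Car5a (-0.13), Sirt5 (-0.10), Asns (-0.11), Odc1 (-0.32), Sds (-0.20), Cyp2e1 (-0.06), Cebpb (-0.35), Hnf4a (-0.46), Gcgr (-0.46), Slc25a10 (-0.091), Slc38a7 (-0.073), Sat1 (-0.049), Gclm (-0.16), Umps (-0.15), Foxa2 (-0.043) and Uox (-0.36). With 1 library left out, ranges were -0.057 to 0.59 for Asns, -0.40 to 0.055 for Pck1, -0.077 to 0.41 for Cebpb, -0.036 to 0.12 for Hnf4a and -0.018 to 0.14 for Gcgr.

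Libraries of the 2 groups share replicate numbers only: deviations of same-numbered libraries correlated at 0.379, -0.0737, 0.305 and 0.12. With the replicate number as a block, edgeR called 4 genes higher and 1 lower, and 0 of the 10; Ass1 had 0.54 and Cps1 0.07.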
